A study of Homo sapiens with 4 samples.

Results

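The RNA levels of 10 genes of the NF-kB pathway were examined in RCC4 cells with and without silencing of PML. These were the subunits NFKB1, NFKB2, REL, RELA and RELB, the inhibitors NFKBIA, NFKBIE and TNFAIP3, the adaptor TRAF1 and the kinase IRAK2. The set was chosen from known members and feedback targets of the pathway, with the difference between shPML and shCtrl in these same libraries already known, so the values of the 10 genes between the 2 conditions are given as a description, without a test. All 10 genes had a row among the 59050 genes counted, and all 10 passed the filter on low counts, which kept 16516 genes. Their counts ranged from 205 (REL, shPML replicate 2) to 14552 reads (NFKB2, shPML replicate 1).

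RCC4 is an established human clear cell renal cell carcinoma line that has lost VHL. Cells carried a doxycycline-inducible lentiviral vector with a hairpin against PML (shPML#1, here shPML) or with a scrambled hairpin (shCtrl), and both conditions received doxycycline at 100 ng/ml for 96 h. Transduced cells were used as bulk populations, in 2 experiments with separate infections, which are replicates 1 and 2, so each condition had 2 libraries. A single hairpin against PML was sequenced. PML itself was lower in shPML in both experiments, at 54.9 CPM (read counts scaled to library size, with TMM factors) against 93.1 CPM in replicate 1 and at 87.6 against 136 CPM in replicate 2. The fitted log2 fold change of PML was -0.69, so a large part of its RNA remained. In edgeR on genes with at least 10 counts in every library, without the experiment in the fit, this value was -0.68 (SE 0.28, adjusted p = 0.27). With the experiment in the main fit it was -0.70.

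NF-kB proteins are dimeric transcription factors that sit in the cytoplasm bound by IkB proteins such as the products of NFKBIA and NFKBIE. In the canonical arm, receptors of the TNF and IL-1 families act through TRAF adaptors and IRAK kinases on the IKK complex, which marks IkB for destruction and frees dimers of RELA, REL and the p50 product of NFKB1. In the non-canonical arm, the precursor encoded by NFKB2 is cut to p52, which partners RELB. NFKB2, RELB, NFKBIA, NFKBIE, TNFAIP3 (the ubiquitin-editing protein A20) and TRAF1 are textbook targets of the pathway that feed back on it, and NF-kB drives much of the cytokine output of senescent cells.

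The libraries held between 27781193 and 69870617 counted reads. The labelled cell type was checked against 7 markers of renal carcinoma cells (PAX8, PAX2, CA9, NDUFA4L2, VEGFA, KRT8 and KRT18), and all 7 were present in every library, with a summed level from 1401 to 2091 CPM. Of 6 leukocyte markers, CD3E and MS4A1 had no count in any library, whereas PTPRC, CD14, CSF1R and ITGAM were highest in shPML replicate 2. The summed level of the leukocyte markers was 2.20 and 2.56 CPM in shCtrl replicates 1 and 2, 2.69 CPM in shPML replicate 1 and 87.6 CPM in shPML replicate 2. Of 4 endothelial markers only PECAM1, which myeloid cells carry too, was highest in that library, at 4.11 CPM, while KDR and CDH5 had no count there. A list of 18 monocyte and macrophage genes, written after these values were seen, had a summed level from 4.11 to 5.36 CPM in the other 3 libraries and of 267 CPM in shPML replicate 2, where 16 of the 18 were at their highest and CD68 and C1QB were at 0. The part of this library's myeloid RNA in any value below was not tested, and each result is given with both experiments side by side. In bulk RNA, more cells that express a gene and more RNA per cell cannot be told apart.

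**Figure D1:**
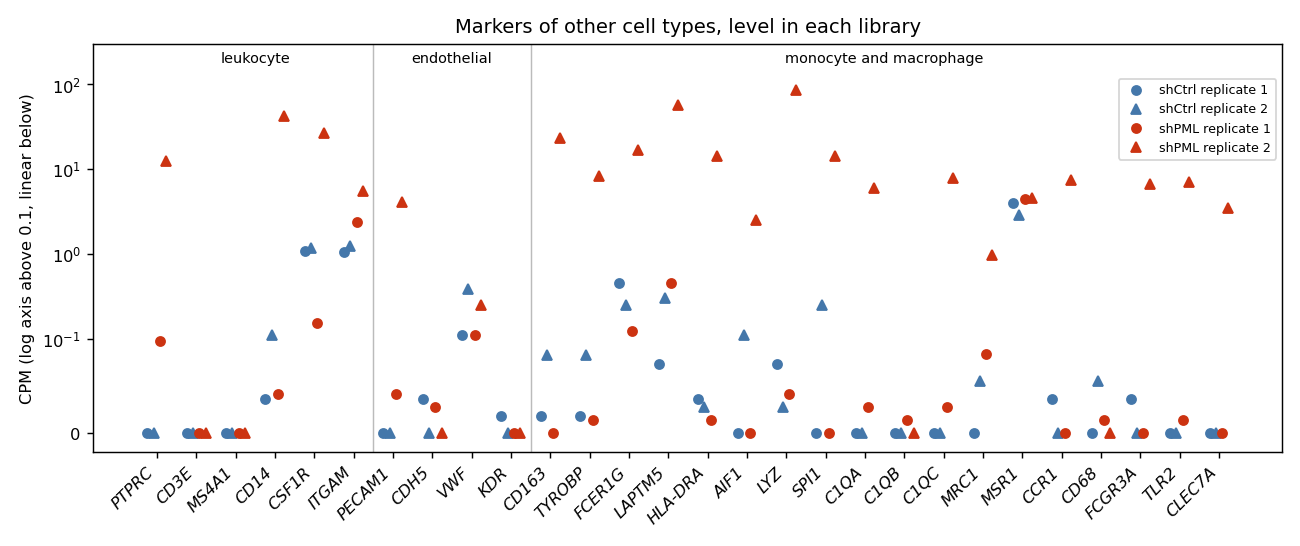
Level (CPM, log axis above 0.1 and linear below) of each marker of other cell types in each library, with blue for shCtrl, red for shPML, circles for replicate 1 and triangles for replicate 2. The red triangles of shPML replicate 2 stand above the other 3 libraries for most myeloid genes, with 42.8 CPM for CD14, while CD3E and MS4A1 lie at 0 throughout.

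The promoters of these genes differed in whether they held the kB consensus, the 10-letter word that NF-kB dimers bind. Windows from 250 bases before to 50 bases after annotated starts were taken from RefSeq (GRCh38.p14), which gave 14 windows for 8 of the 10 genes, without RELB and NFKBIE. On either strand, the consensus was present in a window of NFKB1, NFKB2, REL, NFKBIA and TNFAIP3, that is 5 of 8 genes, and in no window of RELA, TRAF1 and IRAK2. Over all windows 11.3% held it, and of the tested genes with a window 17.0% had it in at least 1. Among the other pathway genes described below, 15 of 28 target genes with a window and 8 of 15 other inhibitors had it. So did 2 of 4 genes of the non-canonical arm and 2 of 19 receptors, adaptors and kinases. A match describes these letters only and does not show binding. The stretches with a match are printed 5′ to 3′ with the matched letters in capitals, where adjoining or overlapping matches run together, since they show which of the feedback genes carry the word close to a start.
NFKB2, chr10:102394431-102394549, plus strand: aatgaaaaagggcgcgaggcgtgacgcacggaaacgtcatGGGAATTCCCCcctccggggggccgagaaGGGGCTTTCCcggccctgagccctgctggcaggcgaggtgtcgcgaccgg
TNFAIP3, chr6:137867152-137867253, plus strand: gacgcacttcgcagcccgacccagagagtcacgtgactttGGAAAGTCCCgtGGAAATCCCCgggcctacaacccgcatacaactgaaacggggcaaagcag
NFKBIA, chr14:35404781-35404870, minus strand: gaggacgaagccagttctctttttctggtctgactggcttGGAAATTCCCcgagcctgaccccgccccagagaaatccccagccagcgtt
NFKB1, chr4:102501270-102501359, plus strand: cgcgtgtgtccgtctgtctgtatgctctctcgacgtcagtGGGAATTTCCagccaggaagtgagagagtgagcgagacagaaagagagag
REL, chr2:60881487-60881577, plus strand: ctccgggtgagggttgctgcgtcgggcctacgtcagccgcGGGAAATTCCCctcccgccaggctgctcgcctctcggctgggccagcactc

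NFKB2 held 3 matches in this window, of which 2 overlap, and 2 more in a window farther downstream (chr10:102395455-102395754). TNFAIP3 held a pair of matches 67 and 55 bases before its start. For TRAF1 and IRAK2, the members with the largest fold changes, the whole windows are printed to show promoters without the consensus. The TRAF1 window shown is that of its outermost start, and its other 2 windows had no match either.
TRAF1, chr9:120929122-120929421, minus strand: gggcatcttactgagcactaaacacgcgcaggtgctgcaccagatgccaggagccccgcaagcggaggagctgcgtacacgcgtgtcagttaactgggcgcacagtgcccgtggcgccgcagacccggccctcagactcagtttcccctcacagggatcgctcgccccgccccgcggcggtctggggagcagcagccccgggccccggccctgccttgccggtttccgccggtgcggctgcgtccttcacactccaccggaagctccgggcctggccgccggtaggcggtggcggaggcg
IRAK2, chr3:10164669-10164968, plus strand: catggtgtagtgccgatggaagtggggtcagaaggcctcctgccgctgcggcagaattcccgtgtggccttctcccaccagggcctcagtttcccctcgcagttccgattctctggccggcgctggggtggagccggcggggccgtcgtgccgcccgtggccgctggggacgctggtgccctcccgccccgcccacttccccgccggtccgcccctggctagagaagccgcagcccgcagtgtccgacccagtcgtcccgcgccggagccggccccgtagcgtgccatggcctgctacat

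TRAF1, an adaptor that binds TRAF2 and the receptors of the TNF family, was higher in shPML by 2.84-fold in replicate 1 and 2.49-fold in replicate 2. The gene spans 120902393 to 120929173 of chromosome 9 (GRCh38, as all positions here). TRAF1 was measured at 62.3 and 63.7 CPM in shCtrl replicates 1 and 2, against 177 and 159 CPM in shPML replicates 1 and 2. Both shPML libraries lay far above both shCtrl libraries, and the conditions did not overlap. The log2 fold change over the 4 libraries was 1.41 (SE 0.15).

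IRAK2, a kinase of the IL-1 and Toll-like receptor cascade, lies on chromosome 3 from 10164919 to 10243745. It was measured at 14.3 and 13.9 CPM in shCtrl and at 37.6 and 37.7 CPM in shPML, in the order of replicates 1 and 2. The libraries of each condition were almost equal, and the log2 fold change was 1.42 (SE 0.16), that is 2.64-fold in replicate 1 and 2.72-fold in replicate 2. TRAF1 and IRAK2 therefore had nearly the same fold change, although TRAF1 had more than 4 times the CPM of IRAK2. Neither promoter printed above held a kB consensus.

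NFKB2, the precursor of p52, lies on chromosome 10 from 102394110 to 102402524. It was at 127 and 139.8 CPM in shCtrl and at 203 and 258 CPM in shPML, with log2 ratios of 0.68 in replicate 1 and 0.88 in replicate 2. The lower shPML library was still above the higher shCtrl library. NFKBIE, which encodes IkB epsilon, an inhibitor that holds RELA and REL dimers, is on chromosome 6 from 44258166 to 44265788. It had 45.9 and 48.2 CPM in shCtrl and 74.5 and 87.1 CPM in shPML. Its log2 ratios were 0.70 and 0.85 in replicates 1 and 2.

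TNFAIP3, whose product A20 removes activating ubiquitin chains upstream of IKK, is on chromosome 6 from 137867259 to 137883312. Its level was 95.3 and 102 CPM in shCtrl and 152 and 175 CPM in shPML, and the conditions did not overlap. Its log2 ratios were 0.67 and 0.78 in replicates 1 and 2. The fitted log2 fold changes of NFKB2, NFKBIE and TNFAIP3 were 0.79 (SE 0.18), 0.78 (SE 0.16) and 0.73 (SE 0.16), so these 3 feedback genes shifted by a like amount. In replicate 1, the 5 genes TRAF1, IRAK2, NFKB2, NFKBIE and TNFAIP3 were higher in shPML by 1.6-fold (TNFAIP3) to 2.84-fold (TRAF1). In replicate 2 the range was from 1.72-fold (TNFAIP3) to 2.72-fold (IRAK2). The part of the myeloid RNA in these values was not tested.

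**Figure D2:**
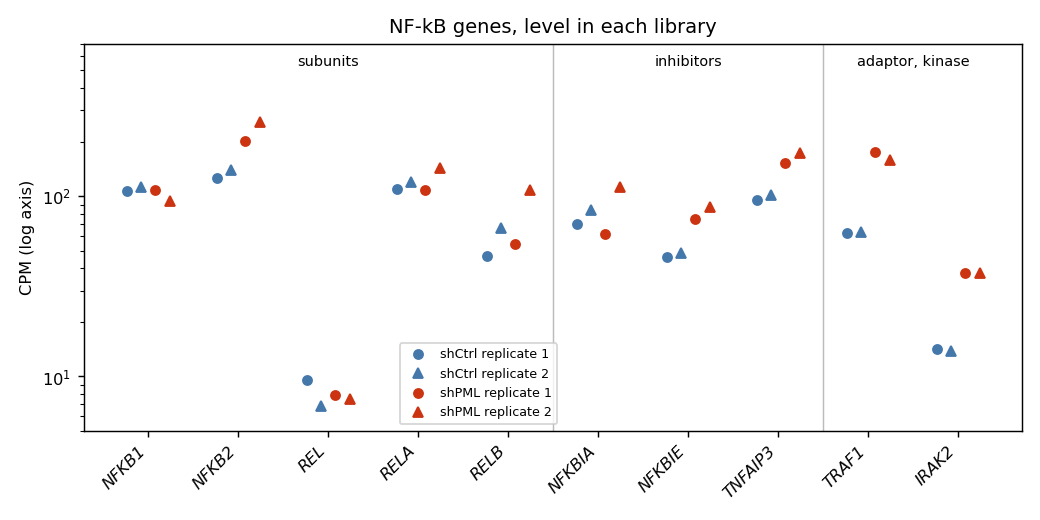
Level (CPM, log axis) of each of the 10 genes in each library, with blue for shCtrl, red for shPML, circles for replicate 1 and triangles for replicate 2. For NFKB2, NFKBIE, TNFAIP3, TRAF1 and IRAK2 both red points lie above both blue points, and for the other 5 genes they overlap.

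The other 5 genes did not separate by condition. NFKB1, the precursor of p50, is on chromosome 4 from 102501331 to 102617302. It had 107 and 113 CPM in shCtrl and 108 and 94.0 CPM in shPML, and its fitted log2 change was -0.12 (SE 0.16). RELA, the transactivating p65 subunit, is on chromosome 11 from 65653597 to 65663090. Its level was 109 and 119.8 CPM in shCtrl and 108 and 144 CPM in shPML, and only shPML replicate 2 stood above the rest. These genes encode the main canonical dimer, and neither moved by more than 0.27 on the log2 scale within an experiment.

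REL, which encodes c-Rel, the subunit best known from lymphocytes, is on chromosome 2 from 60881521 to 60931610 and was the lowest of the 10. It had 9.55 and 6.89 CPM in shCtrl and 7.87 and 7.46 CPM in shPML, so that both shPML libraries lay between the shCtrl libraries. Of its 11255 exon bases, 5702 are shared with AC010733.2, a gene on the same strand with 0 counts in all 4 libraries. How reads on shared bases were treated is not given in the sources used here, so the level of REL is uncertain.

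RELB, the partner of p52, is on chromosome 19 from 45001449 to 45038198, and NFKBIA, which encodes IkB alpha, is on chromosome 14 from 35401511 to 35404746. RELB had 46.8 and 66.6 CPM in shCtrl and 54.3 and 109 CPM in shPML. NFKBIA had 70.2 and 83.4 CPM in shCtrl and 61.7 and 113 CPM in shPML. Both genes were highest in shPML replicate 2, the library with 87.6 CPM of leukocyte markers, while shPML replicate 1 was not above both shCtrl libraries for either gene. The log2 ratio of RELB was 0.21 in replicate 1 and 0.71 in replicate 2, and that of NFKBIA was -0.19 and 0.43. The fitted log2 fold changes were 0.52 (SE 0.37) and 0.18 (SE 0.31) without the experiment in the fit. With it they were 0.46 (SE 0.12) and 0.12 (SE 0.12). Without shPML replicate 2 and without the experiment in the fit they were -0.05 and -0.31. That fit sets shPML replicate 1 against both shCtrl libraries, so differences between the experiments enter it.

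Without a block, edgeR called 2 of the 10 genes higher (TRAF1 and IRAK2) and 0 lower, where a call needed a log2 fold change beyond 0.5 and a Benjamini-Hochberg value under 0.05. Neither was called with RLE normalization or with any 1 of the 4 libraries left out. Over all 16516 genes tested, 0.0787% were called higher and 0.333% lower in that fit. With the experiment as a block, 5 of the 10 were called higher (NFKB2, NFKBIE and TNFAIP3 in addition) and 0 lower, against 8.57% and 10.5% of all genes. Both shPML libraries lay above both shCtrl libraries in the same 5 of the 10 genes and below them in 0, while 23.1% of all genes lay above and 24.9% below. As the set was chosen with this contrast known, nothing is read from these counts. The median log2 ratio of the 10 genes was 0.44 in replicate 1 and 0.74 in replicate 2, and that of all genes was 0.00 in both.

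Levels were compared between genes per length, as RPKM on the exon lengths of the counting. In shCtrl the order was NFKBIA at 40.4 ± 4.94 RPKM (SD, n = 2), NFKB2 at 35.3 ± 2.39, RELA at 33.9 ± 2.21, RELB at 24.9 ± 6.14, TNFAIP3 at 21.1 ± 0.979, NFKB1 at 19.9 ± 0.811, NFKBIE at 18.2 ± 0.629, TRAF1 at 14.1 ± 0.219, IRAK2 at 4.10 ± 0.083 and REL at 0.730 ± 0.167 RPKM. The libraries of NFKBIA and NFKB2, of NFKB2 and RELA, of RELB and TNFAIP3 and of TNFAIP3 and NFKB1 overlapped, and the other neighbours in this order did not. In shPML, NFKB2 had the highest mean, at 60.9 ± 10.2 RPKM, and TRAF1, at 37.5 ± 2.86 RPKM, stood beside RELA, at 37.2 ± 7.48, with which it overlapped. REL was the lowest in both conditions, and over its 5553 unshared exon bases alone its level would be from 1.24 to 1.72 RPKM in the 4 libraries.

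NFKB2 took a larger part of the subunit RNA in both shPML libraries. NFKB2 made up 31.5% and 30.1% of the summed RPKM of the 5 subunits in shCtrl replicates 1 and 2, and 41.4% and 38.7% in shPML. NFKB1 made up 18.1% and 16.7% in shCtrl and 15.1% and 9.67% in shPML. The ratio of NFKB2 to NFKB1, which does not depend on how libraries are scaled, was 1.74 and 1.80 in shCtrl and 2.74 and 4.0 in shPML. The ratio was higher in shPML in each experiment. RELB over RELA was 0.636 and 0.825 in shCtrl and 0.747 and 1.12 in shPML, and here the conditions overlapped. The summed level of the subunits was 107 and 123 RPKM in shCtrl and 129.7 and 176 RPKM in shPML.

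Within their families, TRAF1 and IRAK2 were set beside the other TRAF and IRAK genes, which were listed by family and not by how they moved. Of the other 6 TRAF genes none was called, with or without the block. With the block, 8.57% of all genes were called higher and 10.5% lower. TRAF3, a brake on the non-canonical arm, came nearest, with a log2 fold change of 0.40 with the block (adjusted p = 0.00546), short of the threshold of 0.5 on the fold change. TRAF2 had 17.9 and 21.8 RPKM in shCtrl and 16.7 and 19.1 RPKM in shPML. The ratio of TRAF1 to TRAF2, whose products bind each other, was 0.776 and 0.653 in shCtrl and 2.37 and 1.86 in shPML, so TRAF1 was below TRAF2 in both shCtrl libraries and above it in both shPML libraries.

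IRAK1, the most abundant IRAK gene, had 125 and 171 RPKM in shCtrl and 135 and 196 RPKM in shPML, and IRAK4, the kinase that starts the cascade, 6.04 and 5.08 RPKM in shCtrl and 5.41 and 4.94 RPKM in shPML. Neither was called, and their log2 fold changes were 0.16 (SE 0.26, adjusted p = 0.83) and -0.10 (SE 0.18, adjusted p = 0.84). IRAK3, an inhibitory member typical of monocytes, had 0 counts in both shCtrl libraries, 1 in shPML replicate 1 and 56 in shPML replicate 2, the library with the myeloid genes, and did not pass the filter. Of the other IkB genes NFKBIB, NFKBID, NFKBIZ and BCL3, none was called with or without the block. The shares of all genes called with the block were 8.57% higher and 10.5% lower. BCL3, a nuclear IkB protein that binds p50 and p52, had 7.47 and 17.6 RPKM in shCtrl and 8.77 and 18.9 RPKM in shPML, and so differed by experiment.

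**Figure D3:**
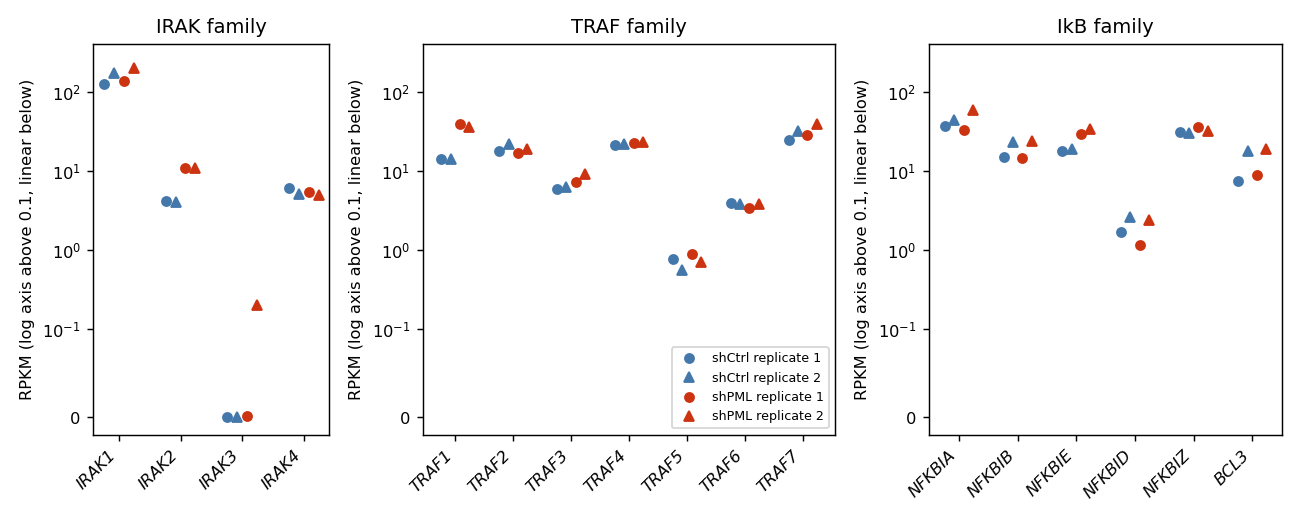
Level per length (RPKM, log axis above 0.1 and linear below) of the IRAK, TRAF and IkB family genes in each library, with blue for shCtrl, red for shPML, circles for replicate 1 and triangles for replicate 2. TRAF1, IRAK2 and NFKBIE have both red points above both blue points, as do TRAF3, TRAF4 and NFKBIZ with smaller gaps and IRAK3, which is at 0 in shCtrl. For IRAK1, TRAF2, TRAF7, NFKBIA, NFKBIB, NFKBID and BCL3 both triangles lie above both circles.

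The contrast of replicate 2 with replicate 1 did not choose the genes and was tested, in the fit that holds both condition and experiment. Of the 10 genes, 2 were called higher in replicate 2 (RELB and NFKBIA) and 0 lower, against 8.93% and 4.53% of all genes. RELB was higher by 0.76 on the log2 scale (SE 0.12, adjusted p = 7.1e-07, edgeR) and NFKBIA by 0.56 (SE 0.12, adjusted p = 0.000178, edgeR). The difference between the experiments was 0.51 for RELB and 0.25 for NFKBIA within shCtrl, where leukocyte markers were at 2.20 and 2.56 CPM, and 1.00 and 0.87 within shPML, where they were at 2.69 and 87.6 CPM. Whether the difference was larger in shPML could not be tested, as each condition had 1 library per experiment.

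The genes that separated by condition did not pass the test between the experiments. They were picked from these same libraries. Separation by condition favours genes with small differences between experiments, so nothing is read from this. Their log2 differences were -0.06 for TRAF1 (SE 0.11, adjusted p = 0.73), -0.02 for IRAK2 (SE 0.13, adjusted p = 0.94), 0.15 for NFKBIE (SE 0.11, adjusted p = 0.38), 0.15 for TNFAIP3 (SE 0.10, adjusted p = 0.33) and 0.24 for NFKB2 (SE 0.10, adjusted p = 0.0717). RELA, at 0.27 (SE 0.11, adjusted p = 0.0507), was not called either. REL and NFKB1 had differences of -0.28 (SE 0.20) and -0.06 (SE 0.11).

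**Figure D4:**
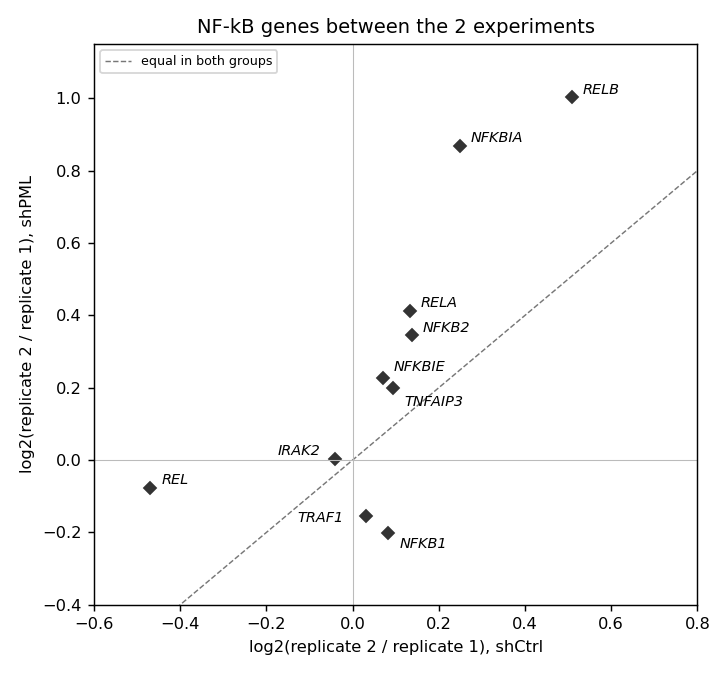
Log2 ratio of replicate 2 over replicate 1 for each of the 10 genes, within shCtrl (horizontal) and within shPML (vertical), with a dashed line where both would be equal. RELB (0.51 and 1.00) and NFKBIA (0.25 and 0.87) lie farthest up, and IRAK2 (-0.04 and 0.00) lies next to the origin.

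Other genes of the pathway were taken from 4 lists of 78 names, written from general knowledge but with earlier results of these data known. Of these, 76 had a row in the counts and 70 passed the filter. Without the block 0 of the 70 were called in edgeR, while 13 of the higher and 7 of the lower genes had an unadjusted p below 0.05, against 7.8% and 10.1% of all genes. DESeq2 without the block called 7 higher and 4 lower, against 1.79% and 2.79% of the 30093 genes it was run on. Those genes include many that failed the filter on low counts, which the 70 had passed, so these shares are not like for like. In the blocked fit the calls were 15 higher and 5 lower, against the 8.57% and 10.5% of all genes given above. The median log2 fold change of the 70 genes was 0.11, and that of all genes was 0.01.

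Among 22 receptors, adaptors and kinases, 21 were tested, with a median log2 fold change of -0.02. With the block 3 of them were called lower and 1 higher, against 10.5% and 8.57% of all genes. IL1R1, the signalling receptor of IL-1 upstream of IRAK2, had 20.5 and 27.5 CPM in shCtrl and 10.0 and 11.1 CPM in shPML, a log2 fold change of -1.17 with the block (adjusted p = 1.1e-09, and 0.079 without it). BIRC2, the ubiquitin ligase cIAP1 that TRAF2 recruits, had 207 and 209.9 CPM in shCtrl and 129 and 113 CPM in shPML (-0.78 with the block, adjusted p = 5.2e-09, and 0.0895 without it). CHUK, which encodes the IKK alpha kinase needed to cut the NFKB2 precursor, had 26.8 and 27.6 CPM in shCtrl and 18.2 and 16.4 CPM in shPML (-0.65 with the block, adjusted p = 7.0e-05, and 0.13 without it). For all 3 genes the conditions did not overlap. Of the 21 tested, both shPML libraries lay above both shCtrl libraries in 4 and below them in 4. The shares over all genes were 23.1% above and 24.9% below. The gene called higher was MYD88, the adaptor of IL-1 and Toll-like receptors, with 1.39 and 0.472 CPM in shCtrl and 2.65 and 6.58 CPM in shPML, highest in the library with the myeloid genes.

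Of 6 genes of the non-canonical arm 5 were tested. With the block 1 was called higher and 0 lower, against 8.57% and 10.5% of all genes. This gene was BIRC3 (cIAP2, itself a target of NF-kB). It had 189 and 202 CPM in shCtrl and 308 and 279.98 CPM in shPML, and its log2 fold change was 0.59 (adjusted p = 2.5e-06 with the block and 0.14 without it). With the block, BIRC3 thus rose and its paralog BIRC2 fell. Of 16 other inhibitors 14 were tested, and with the block 0 were called in edgeR in either direction, against the same shares of all genes. Without the block 1 gene, which was lower, had an unadjusted p under 0.05 in edgeR, against 10.1% of all genes.

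Of 34 target genes of NF-kB 30 were tested. Their median log2 fold change was 0.38, and 13 were called higher and 2 lower with the block, against 8.57% and 10.5% of all genes. SOD2, the mitochondrial superoxide dismutase, had 469 and 496 CPM in shCtrl and 1068 and 1122 CPM in shPML, with log2 ratios of 1.19 and 1.18 in replicates 1 and 2 (adjusted p = 2.0e-16 with the block and 0.0522 without it). ICAM1, an adhesion molecule named here after its values were seen, had 266 and 279.6 CPM in shCtrl and 427 and 443 CPM in shPML. SOD2 and ICAM1 moved alike in both experiments, as TRAF1 and IRAK2 did. The other targets were mixed. Of the 30 tested, both shPML libraries lay above both shCtrl libraries in 12 and below them in 7. The shares over all genes were 23.1% above and 24.9% below.

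Other target genes stood out in shPML replicate 2. MMP9, a secreted protease, had 2.73 and 16.1 CPM in shCtrl, 14.6 CPM in shPML replicate 1 and 449 CPM in shPML replicate 2, with log2 ratios of 2.40 and 4.80. IL1B, a cytokine made mainly by myeloid cells, had 0 and 0.389 CPM in shCtrl. In shPML it had 0.0837 CPM in replicate 1 and 33.0 CPM in replicate 2. Its log2 ratios were 1.58 and 6.26 in replicates 1 and 2. The fitted log2 value without the block, 6.58 over all libraries, was -1.10 once shPML replicate 2 was left out. Outside that library the levels were near 0, so both the 1.58 and the -1.10 rest on few reads. The part of the myeloid RNA in these values was not tested. Of the 13 targets called higher with the block, 7 had a log2 ratio larger by over 1 in replicate 2 than in replicate 1. They were CXCL3, CXCL8, CCL2, CCL5, CCL20, IL1B and MMP9. Another 5 had ratios over 0.5 in replicate 1 and within 0.5 of it in replicate 2 (CXCL1, CXCL2, ICAM1, SOD2 and PTX3). This grouping was made after the values were seen. PLAU, with ratios of 0.61 and 1.24, was in neither group. CCL20 had 0.074 and 0.028 CPM in shCtrl and 0.60 and 0.95 CPM in shPML, so its ratios rest on few reads. The lower targets were SDC4, a cell surface proteoglycan, at 318 and 370.3 CPM in shCtrl and 185 and 177 CPM in shPML (adjusted p = 2.8e-11 with the block and 0.0745 without it), and LTB, which encodes lymphotoxin beta, a ligand of the non-canonical arm, at 2.09 and 4.89 CPM in shCtrl and 0.460 and 0.837 CPM in shPML (adjusted p = 5.7e-06 with the block and 0.13 without it).

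**Figure D5:**
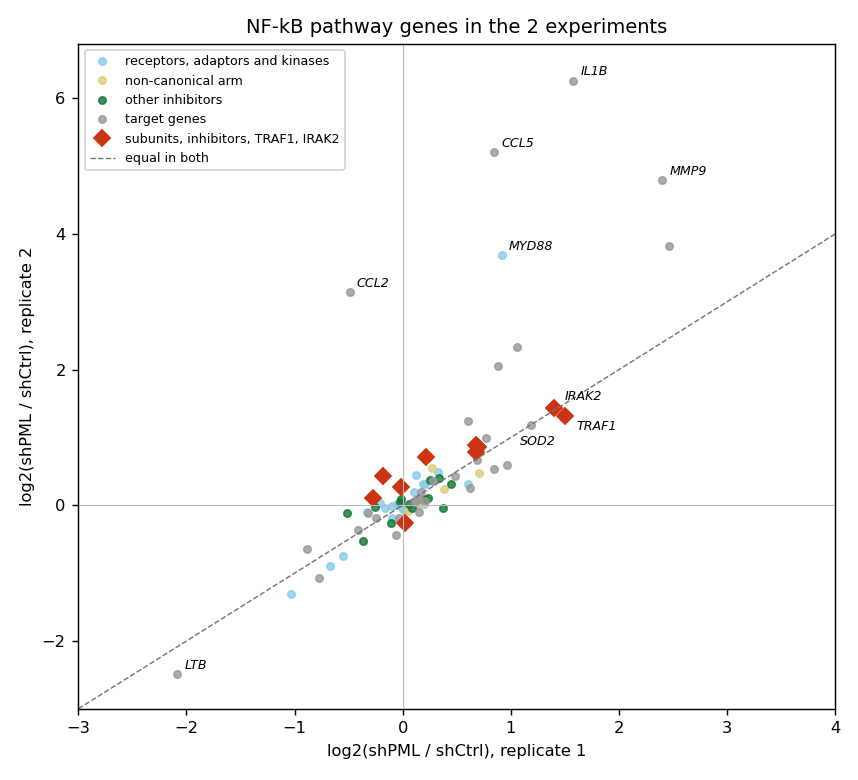
Log2 ratio of shPML over shCtrl in replicate 1 (horizontal) and replicate 2 (vertical) for the 10 genes (red diamonds) and 70 other pathway genes (dots coloured by list), with a dashed line where both are equal. TRAF1, IRAK2 and SOD2 lie near the line, while IL1B, CCL5, MMP9, CCL2 and MYD88 lie above it.

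The genes with a pattern over the 4 libraries most like that of TRAF1 were MFNG, CYP4A22-AS1 and IRAK2, with root mean square differences of centred log2 CPM of 0.03, 0.06 and 0.06. Those most like IRAK2 were CYP4A22-AS1, MFNG and ITGA5, at 0.03, 0.03 and 0.06. MFNG encodes a glycosyltransferase of the Notch pathway and ITGA5 an integrin subunit. With 4 libraries, the likeness says little more than that these genes were close to 2 levels, a lower level in shCtrl and a higher level in shPML. CYP4A22-AS1 was at 0.50 and 0.50 CPM in shCtrl and 1.35 and 1.35 CPM in shPML, and ITGA5 at 319 and 335 CPM in shCtrl and 816 and 842 CPM in shPML.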

How the data were processed

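RNA of RCC4 cells was measured in 2 shCtrl and 2 shPML libraries. Raw read counts per gene were deposited by the authors, who trimmed single-end reads of stranded mRNA libraries with Trimmomatic 0.39, used STAR to map them to GRCh38 and featureCounts 1.6.4 to count them per gene. The Gencode release and the strand setting are not given in the sources used here. Columns were matched to samples by name, and the column of each condition without a number was taken as replicate 1, as the other carries the number 2. The labels of 2 samples had been exchanged in the record and were used as corrected.

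Counts were fitted across all genes in R 4.3.3 with edgeR 4.0.16 (filterByExpr, TMM, quasi-likelihood test, Benjamini-Hochberg adjustment), and DESeq2 1.42.0 was an alternative. Calls used the limits of the study, a log2 fold change beyond 0.5 with an adjusted p below 0.05. The main fit had no block. The numbers pair the libraries, since the study describes 2 experiments, and libraries of the same number deviated together from their group means, with a correlation of 0.546 across genes. Adding the block lowered the common dispersion from 0.0813 to 0.0137. Ratios within an experiment used log2 CPM with a prior count of 2. With 2 libraries against 2, p-values rest on few degrees of freedom, and fits that leave out 1 library assume that the lone library varies like the others. Counting error was small beside this except in genes with few reads. The scripts were tested on simulated data.

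The 10 genes and the lists were chosen with earlier results of these data known. Named are all 10 genes, PML, the TRAF, IRAK and IkB families, the other pathway genes called without the block and up to 3 per list and direction with the smallest adjusted p with it, and the 3 genes most like TRAF1 and like IRAK2. LTBR and N4BP1 were not analysed here, and 1 leukocyte marker is not reported here. Promoter windows came from RefSeq, and proteins were not used.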

Additional observations from a re-analysis of the deposited data

Results flagged for a closer look

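In 4 of the 10 genes the log2 ratio of shPML over shCtrl had opposite signs in the 2 experiments. The ratios in replicates 1 and 2 were 0.020 and -0.27 for NFKB1, -0.28 and 0.11 for REL, -0.017 and 0.26 for RELA, and -0.19 and 0.43 for NFKBIA. Each ratio rests on 1 library per condition, and the difference between the experiments was not tested.

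Markers of other cell types, which entered no comparison of the 10 genes, were higher in shPML replicate 2 than in both shCtrl libraries. They were CD14 at 42.8 CPM, CSF1R at 26.6 CPM, PTPRC at 12.6 CPM and PECAM1 at 4.11 CPM. In shPML replicate 1 the level of CD14 was 0.0418 CPM. Their source was not tested.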

How the results depend on the processing

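For TRAF1, IRAK2, NFKB2, NFKBIE and TNFAIP3, every alternative run kept the direction of the fold change, with ranges of the log2 value from 1.32 to 1.51, 1.40 to 1.44, 0.62 to 0.95, 0.67 to 0.89 and 0.64 to 0.83. The values of RELB, NFKBIA, RELA, NFKB1 and REL changed sign in at least 1 of them, with ranges from -0.05 to 0.94, -0.31 to 0.55, -0.07 to 0.33, -0.27 to 0.02 and -0.32 to 0.15. The number of the 10 genes called higher without the block was 2, and it was 5 with the replicate block in edgeR and in DESeq2, with DESeq2 without it and with no filter on low counts, 0 with RLE normalization, and from 0 to 0 when 1 library was left out. Of the other pathway genes, 0 were called higher without the block, 15 with the replicate block in edgeR and 12 in DESeq2, 7 with DESeq2 without it, 13 with no filter and 1 with at least 10 counts in every library, and 0 were called lower against 5, 5, 4 and 4 in the first 4 of these. Over all genes, 13 were called higher and 55 lower, and these counts became 1415 and 1735 with the replicate block in edgeR, 1000 and 1294 with it in DESeq2, 538 and 840 with DESeq2 without it, 891 and 946 with no filter, 53 and 144 with at least 10 counts in every library, 0 and 0 with RLE normalization (2967 genes at an unadjusted p under 0.05), and from 1 to 11 and from 0 to 29 with 1 library left out. Between the experiments, the 2 genes called higher became 0 with a log2 threshold of 1 and 0 without the condition in the fit. Leaving out 1 library leaves no degrees of freedom for that contrast, so it gave values and no count. The fitted log2 value of IL1B was -1.10 without shPML replicate 2, on levels near 0, while its log2 ratio within replicate 1 was 1.58. The looser word in place of the kB consensus was present in all 8 genes with a window, against 5, and in 79.0% of the tested genes with a window, where the consensus was present in 17.0%. The cause of these changes was not tested. The ratios within each experiment and the monocyte and macrophage list were added after seeing the data.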

Other observations

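Some genes of the pathway had too few counts to be tested and entered no comparison. IL1A, an alarmin of the senescence secretome, had 0 counts in both shCtrl libraries and in shPML replicate 1 and 20 in shPML replicate 2. PTGS2, the inducible cyclooxygenase, had 10 and 1 counts in shCtrl and 4 and 25 in shPML. The adhesion molecule VCAM1 had 0 counts in shCtrl and 10 and 5 in shPML, and SELE had 1 count in all. RNF31, the catalytic subunit of the linear ubiquitin ligase, had 6 counts in shCtrl replicate 2 and 0 elsewhere, although RBCK1, which encodes its partner, was at 295 to 441 CPM.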
